A study of Mus musculus with 2 samples.

Results

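Signal transducers of the STAT family, the SOCS-type inhibitors and the kinase Jak2 were followed in nuclear RNA of lipid A-treated macrophages. The 9 members, chosen by gene symbol, were Stat2, Stat3, Stat5a, Stat5b, Stat6, Socs1, Socs3, Cish and Jak2, out of 55536 annotated genes. All 9 were found in each table of both libraries. The samples were primary bone marrow-derived macrophages of C57BL/6J mice, given lipid A, the TLR4-binding part of bacterial lipopolysaccharide, at 100 ng/ml for 25 min. Total RNA of the nucleoplasmic fraction (nuclear, in another label) was depleted of ribosomal RNA and sequenced in 2 libraries, replicates 1 and 2, which form the only group. The labels state neither the sex nor the age of the mice, and no genotype beyond the strain. Both libraries carry the same donor entry, so each SD measures the spread between these libraries (n = 2), which may be technical. With no untreated, later or whole-cell samples analysed here, every value is a level in treated nuclei, and no induction was measured.

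Cytokine receptors without enzyme activity of their own signal through bound Janus kinases. The kinases phosphorylate the receptor and then the STAT proteins that dock on it, and the paired STATs enter the nucleus and bind DNA. Socs1, Socs3 and Cish are classical negative feedback genes: their promoters are bound by STATs, and their proteins restrain the receptors and kinases. In macrophages, interleukin 10, interferons, interleukin 4 and granulocyte-macrophage colony-stimulating factor all act through this pathway, while TLR4 itself signals through other adaptors.

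Levels are in TPM (a level per transcript length, scaled to 1e+06 per library), as deposited in the gene table. Replicate 1 had 13506939 expected counts and replicate 2 had 17932332, of which the members took 11875 and 17559. Counts differed between the libraries by more than sampling noise (chi-square divided by degrees of freedom 52.4, 15442 genes), so they were kept as separate replicates. All 10 macrophage markers reached 1 TPM in both libraries, with means between 28.5 and 1648 TPM. Of 30 markers of other cells 3 did: Pf4 at 59.3 TPM, Cd4 at 26.6 TPM and S100a9 at 1.65 TPM. Cd3e, Mcpt4 and Fcer1a had 0 counts, which allows up to 3 counts in a library. In bulk RNA, fewer cells of a type and less RNA per cell cannot be told apart.

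Of the 9 members, 8 were detected, meaning at least 1 TPM in both libraries, where 44.5% of 22028 protein-coding genes were. Socs1 was the exception. At a minimum of 5 TPM, 7 members passed, against 28.6% of protein-coding genes, and Cish dropped out as well. At 0.1 TPM all 9 passed, against 56.2%. In the alignment-free table, made from reads without an alignment, 7 members reached 1 TPM, against 34.3%. The median level of the members, as log2(TPM + 1), was 3.64 ± 0.21, against 3.40 ± 0.33 for the 9806 detected protein-coding genes. Single members ranged from Socs1, not detected, to Stat2, above 95.3% of the detected protein-coding genes. They did not sit at the top of the expressed genes as a set. Summed over the transcripts of each gene, Stat2, Stat6, Socs3 and Stat3 formed a high tier. Stat5b, Jak2, Stat5a and Cish formed a middle tier, and Socs1 lay far below both.

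**Figure D1:**
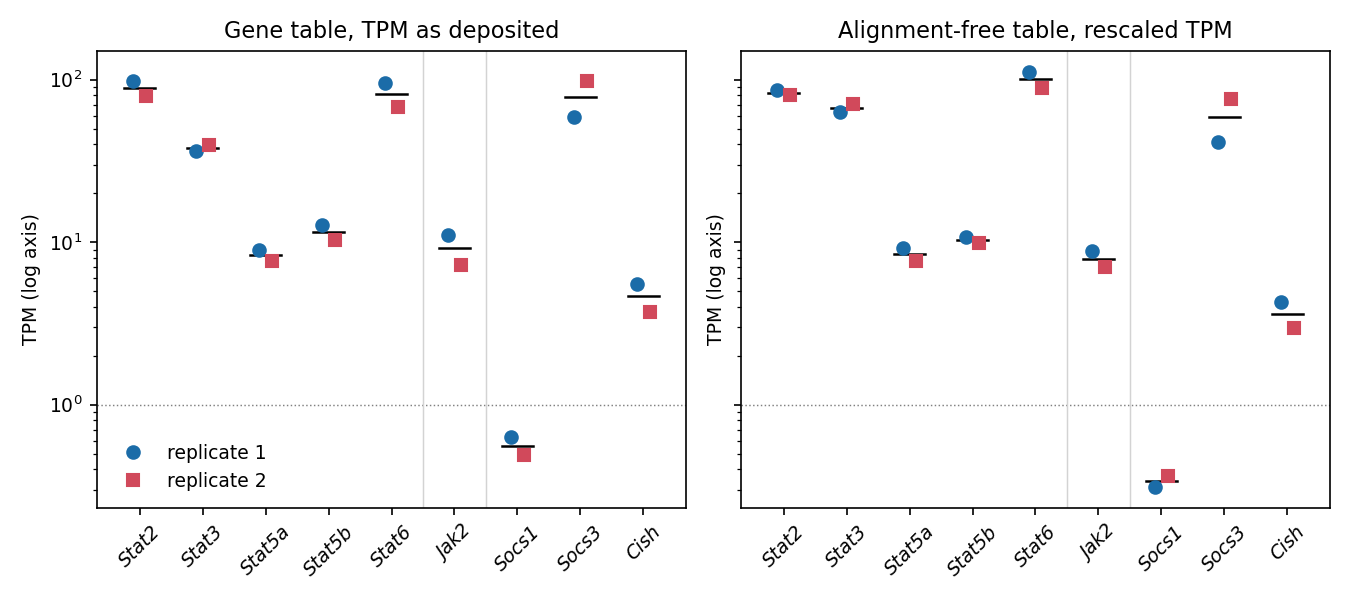
TPM of each member in replicates 1 (circles) and 2 (squares) on a log axis, with black bars at their mean; the left panel shows the gene table as deposited and the right panel the alignment-free table rescaled without mitochondrial genes and genes under 200 bases. Vertical lines part the STATs, Jak2 and the inhibitors, and the dotted line is at 1 TPM. Socs1 lies below that line in both panels, and Stat2, Stat6, Socs3 and Stat3 lie above all others.

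Among the STATs, Stat2 and Stat6 led. Stat2, which acts with Irf9 in the type I interferon response, lies at chr10:128270559-128292849 on the plus strand (mm10). It measured 97.7 TPM in replicate 1 and 79.5 TPM in replicate 2, from 3683 and 4168 counts. Stat6, which carries interleukin 4 and interleukin 13 signals, lies 609601 bases away at chr10:127642986-127660957, also on the plus strand. It measured 95.6 and 68.2 TPM in replicates 1 and 2. These genes were above 95.3% and 94.8% of the detected protein-coding genes, and together they made up 76.9% and 72.0% of the TPM of the 5 STAT members. Stat2 and Stat6 did not differ beyond their spread, with a difference of 0.12 ± 0.13 in log2(TPM + 1), the scale of all differences between genes below, and the alignment-free table put Stat6 above Stat2 in both libraries.

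Stat3, the main STAT of interleukin 6 and interleukin 10, lies at chr11:100885098-100939540 on the minus strand. It measured 36.2 and 39.4 TPM in replicates 1 and 2, from 1186 and 1842 counts, above 85.7% of the detected protein-coding genes. Its difference from Stat5b, next but lower among the STATs, was 1.63 ± 0.29 on the log2 scale and had the same sign in both libraries and both tables. That difference is of gene sums. Coding transcripts held 43.3% and 31.1% of the Stat3 TPM in replicates 1 and 2, and 95.25% and 87.4% of the Stat5b TPM. The difference between coding transcripts alone was not computed. Stat3 RNA can be spliced to a long form and to a short form, known as alpha and beta. The short form skips a segment of 50 coding bases at chr11:100889541-100889590 and so ends in another reading frame, without most of the carboxy-terminal activation domain. The junction is shown because reads across it tell the forms apart: the capitals mark the segment that only the long form holds, with 20 bases of shared sequence on each side, from the GENCODE M21 transcripts.
Stat3-203, long form: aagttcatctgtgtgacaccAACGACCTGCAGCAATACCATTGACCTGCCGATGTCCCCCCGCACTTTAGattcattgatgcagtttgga
Stat3-202, short form: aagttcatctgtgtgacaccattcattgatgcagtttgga
Over Stat3-201, Stat3-202 and Stat3-203, the short form took 26.4% and 36.0% of the TPM in replicates 1 and 2, a mean of 31.2% ± 6.78. By alignment-free TPM it took 24.6% and 23.2%. Both forms were thus assigned reads in both libraries, and the long forms held the larger share by TPM in both tables. The annotated short transcript is itself longer, 6042 bases against 4516 in Stat3-203, since it ends further downstream at base 100885098. Reads in that tail count for the short transcript whichever way the junction was spliced.

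Stat5a and Stat5b, the targets of granulocyte-macrophage colony-stimulating factor and of prolactin, are neighbours that lie head to head, 8626 bases apart. Stat5b, at chr11:100780731-100850724 on the minus strand, measured 12.9 and 10.3 TPM in replicates 1 and 2. Stat5a, at chr11:100859351-100885169 on the plus strand, measured 9.01 and 7.68 TPM. Stat5b was the higher in each library and held 58.8% and 57.2% of their joint TPM, a mean of 58.0% ± 1.11. By expected counts, which are not per length, its share was 67.2% ± 2.18, and it was 55.2% ± 1.54 by alignment-free TPM. The split rests on an estimate, since the coding sequences are 90.7% identical over 2343 aligned bases. Of the 50-base stretches in their transcripts, 11.0% of those of Stat5b and 8.52% of those of Stat5a occur in another gene as well, nearly all of them in the partner. The longest shared run is 324 bases, coding bases 571 to 894 in both genes. Its first 60 bases are shown with the last 60 coding bases of each gene, from the GENCODE M21 transcripts, to contrast a stretch that cannot assign a read with stretches that can.
Stat5a and Stat5b, shared: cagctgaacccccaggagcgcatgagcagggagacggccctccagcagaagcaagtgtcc
Stat5a-202, coding end: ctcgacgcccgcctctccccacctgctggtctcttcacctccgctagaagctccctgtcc
Stat5b-201, coding end: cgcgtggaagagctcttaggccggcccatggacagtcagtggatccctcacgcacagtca
At their far end, Stat5a and Stat3 run into each other and overlap by 72 bases on opposite strands. No label or header says whether the counting was stranded, so reads in that overlap are uncertain.

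Jak2, the kinase of the interferon gamma, erythropoietin and granulocyte-macrophage colony-stimulating factor receptors, lies at chr19:29251828-29313080 on the plus strand. It measured 11.1 and 7.25 TPM in replicates 1 and 2, a mean of 9.19 ± 2.74 TPM, from 733 and 797 counts. This placed it above 48.3% of the detected protein-coding genes, near their middle. Jak2 was lower than Stat5b in each library, with a log2 difference of 0.32 ± 0.18 for Stat5b minus Jak2, but their ranges overlapped across libraries. From Stat5a it did not differ beyond the spread, and the order of Jak2 and Stat5a changed between the libraries.

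The 3 inhibitors spanned nearly the whole range of the members. Socs3, which binds Jak2 and the interleukin 6 receptor chain Il6st and blocks Stat3 activation, lies at chr11:117966079-117970047 on the minus strand. It measured 59.1 TPM in replicate 1 and 98.0 TPM in replicate 2, from 1889 and 5289 counts. Cish, which restrains receptors that use Stat5, lies at chr9:107296026-107302784 on the plus strand and measured 5.57 and 3.73 TPM, from 300 and 330 counts. Socs1, the main brake on interferon signalling, lies at chr16:10782240-10785536 on the minus strand and measured 0.630 and 0.490 TPM. Socs3 thus held 90.5% and 95.9% of the summed TPM of these inhibitors, and 90.0% and 95.8% in the alignment-free table.

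Socs1 rested on 22 counts in replicate 1 and 29 in replicate 2, with exact 95% Poisson intervals of 13.8 to 33.3 and 19.4 to 41.6. Its level stayed under 1 TPM at the upper end of both intervals, 0.954 and 0.704 TPM, and the alignment-free table also listed it under 1 TPM. These intervals hold counting error alone: without molecular identifiers, reads do not stand for independent molecules. The ratio of Socs3 to Socs1 was 147 ± 75.1 and lowest in replicate 1, at 93.8, and that of Socs3 to Cish was 10.6 and 26.3 in replicates 1 and 2. Both ratios were far above 1 in each library. Both were larger in replicate 2, where the TPM of Socs3 was higher and the TPM of Socs1 and Cish lower. The counts of Socs1 and Cish were not lower there. With the median library ratio of all genes subtracted, as described below, Socs1 stood at 0.29 and Cish at -0.05. Both values lay within their counting errors of 0.80 and 0.23. Cish was higher than Socs1 by 1.84 ± 0.24 and lower than Stat5a by 0.74 ± 0.19, both on the log2 scale of TPM + 1. These differences and the ratios to Socs3 are of gene sums. Coding transcripts held 28.5% and 35.2% of the Cish TPM in replicates 1 and 2, and 100% of the Socs1 TPM in both. They held 83.8% and 77.9% of the Stat5a TPM. Differences between coding transcripts alone were not computed.

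The order of Socs3 and Stat3 depended on the quantification. In the gene table Socs3 exceeded Stat3 by a factor of 1.63 in replicate 1 and 2.49 in replicate 2, a log2 difference of 0.99 ± 0.43. The alignment-free table gave a ratio of 0.662 and 1.08. Rescaling that table without mitochondrial genes and genes under 200 bases gave Socs3 41.6 and 76.5 TPM and Stat3 62.8 and 71.1 TPM. The gene table thus placed Socs3 above Stat3 in both libraries, and the alignment-free table in replicate 2 alone. These orders are of gene sums. Coding transcripts held 43.3% and 31.1% of the Stat3 TPM in replicates 1 and 2, and 100% and 99.2% of the Socs3 TPM. By alignment-free TPM they held 16.4% and 14.4% of Stat3, and 95.5% and 93.7% of Socs3. The part of this in the changed order was not tested. Socs3 and Stat6 also changed places between the libraries, with a log2 difference of 0.084 ± 0.85 for Stat6 minus Socs3.

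Socs3 was the member that differed most between the libraries. For the 14584 genes with at least 10 expected counts in both, the log2 ratio of TPM + 1 in replicate 2 to replicate 1 was taken, and the median of all these genes, -0.42, was subtracted. Socs3 stood at 1.14, higher than 99.2% of the genes, with a counting error of 0.076 (95% half-width). It was 1 of 9 members beyond 2-fold, where 1.71% of all countable genes were. Stat3 followed at 0.54, higher than 92.8% of the genes, and the other 7 members lay between -0.13 for Jak2 and 0.29 for Socs1. The median of the members was 0.13, inside the quartiles of all countable genes, -0.21 and 0.23. With the median not subtracted, Socs3 stood at 0.72 and no member passed 2-fold, where 3.91% of genes did. With the median taken over genes without a minimum of counts it stood at 0.97, and again no member passed, where 2.84% of genes did. In the alignment-free table Socs3 stood at 0.59 and Socs1, at 1.03, was the member beyond 2-fold, where 5.72% of genes were. After that table was rescaled, Socs3 alone was, at 1.24, where 2.4% of genes were. Per the labels, replicate 1 was made from 500 ng of RNA and replicate 2 from 1 µg, and the part of this in the Socs3 difference was not tested. With 1 library on each side there is no replicate check of this ratio.

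**Figure D2:**
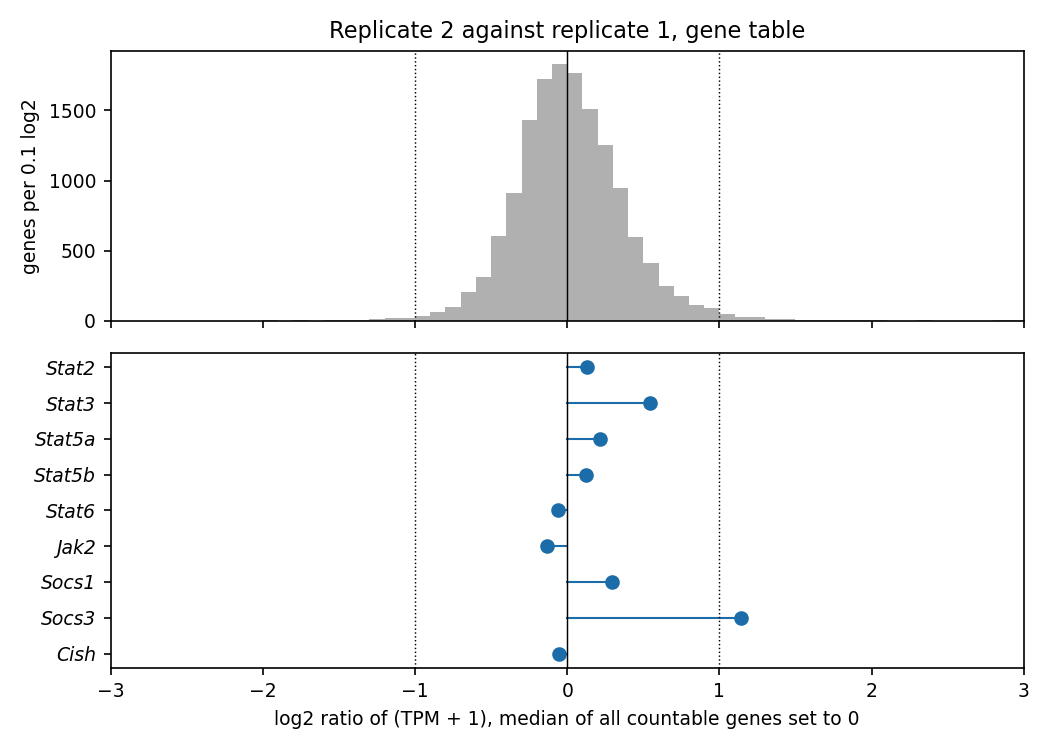
Log2 ratio of TPM + 1 in replicate 2 to replicate 1, with the median of all countable genes set to 0. The upper panel counts all 14584 genes in steps of 0.1, drawn from -3 to 3, and the lower panel gives each member as a point. Dotted lines mark 2-fold, and Socs3 at 1.14 is the member beyond them.

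The nuclear RNA of these genes was divided over 51 annotated transcripts, of which 40 had counts. The compact inhibitor genes with 2-exon transcripts were simple: Socs3-201 took 100% and 99.2% of the Socs3 TPM in replicates 1 and 2, and Socs1-201 took 100% in both. By alignment-free TPM, Socs1-202, which keeps 120 more bases of intron, took 83.4% of Socs1 in replicate 1 and 28.2% in replicate 2. Jak2-202, of 25 exons, took 100% and 94.6% of the Jak2 TPM. Stat6-201 took 55.6% and 57.0%, Stat2-201 59.9% and 45.8%, and Stat5a-202 68.8% and 48.6%. Each of these is annotated as protein-coding. Stat3-203, also coding, led Stat3 with a smaller share, 30.0% and 19.3%. By mean alignment-free share the leader of Stat3 was Stat3-204, a retained-intron form, at 19.8% and 17.8%, where Stat3-203 took 11.4% and 10.7%. For Stat5b the leader changed, with Stat5b-202 at 51.3% and 33.6% and Stat5b-201 at 44.0% and 53.7%. Both encode the same 786 codons but begin at different start sites. By TPM as deposited with the alignment, the same transcript led in both libraries for 8 of 9 members. By mean share, the same transcript led in both tables for 6 of 9. Neither share was computed over all genes, so these counts have no background beside them.

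Transcripts annotated as retained-intron forms, which keep intron sequence and carry no coding frame, exist for 3 of the 9 members. Among 11364 protein-coding genes with enough counts to be compared, 60.6% have such a transcript. The members thus had them less often, a difference that was not tested. Stat3 has 9 such transcripts. They held 16.0% of its counts in replicate 1 (95% Wilson interval 14.0 to 18.2%) and 25.7% in replicate 2 (23.7 to 27.7%). Stat2 has 6, with 9.21% (8.31 to 10.2%) and 15.6% (14.6 to 16.8%) of its counts. Stat6 has 3, with 9.46% (8.43 to 10.6%) and 9.33% (8.43 to 10.3%). For Stat2 and Stat3 the share was higher in replicate 2, and for Stat6 it was nearly equal. The Wilson intervals, like the Poisson ones, hold counting error alone, so with 1 library on each side they do not test these differences. The median over these genes was 12.6% ± 4.37, against 17.0% ± 0.385 over 6881 protein-coding genes with such a transcript. By TPM the order was the other way, 49.3% ± 6.90 against 29.4% ± 0.201. The retained-intron transcripts of the members are short, from 341 to 1995 bases, so each count in them weighs more per length than a count in Stat6-201, of 3775 bases, Stat2-201, of 4394, or Stat3-203, of 4516. Lengths in the 6881 genes were not compared, and the part of length in the changed order was not tested.

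**Figure D3:**
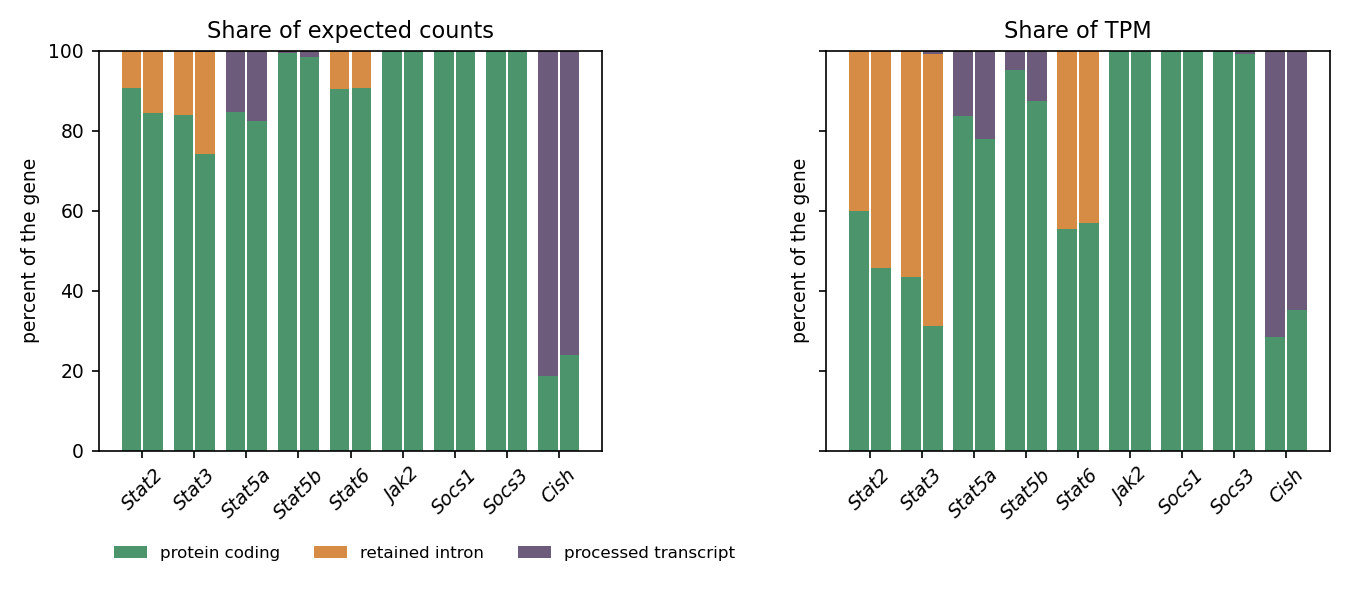
Share of each member's expected counts (left) and TPM (right) in annotated protein-coding, retained-intron and processed transcripts, with replicate 1 as the left and replicate 2 as the right bar of each pair. Retained-intron forms appear for Stat2, Stat3 and Stat6 and take a larger share by TPM than by counts, while Cish is mostly in a processed transcript.

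Cish stood apart from the other members in its transcripts. Its leader was Cish-202, an annotated processed transcript without a coding frame, with 71.5% and 64.8% of the TPM in replicates 1 and 2 and 76.4% and 71.8% in the alignment-free table. Cish-202 has 3 exons and 4697 bases, runs from base 107296907 to base 107301943 on chromosome 9, and holds 2772 bases of intron of the coding transcript Cish-201. It held 81.4% of the Cish counts in replicate 1 (76.5 to 85.3%) and 76.0% in replicate 2 (71.2 to 80.3%). Cish-201, with a coding frame of 257 codons, was left with 13.8% and 24.4% of the TPM. A measure chosen after seeing this value set it against other genes: the share of counts in any annotated noncoding transcript that runs into an intron of the gene's longest coding transcript. The mean share of Cish, 78.7% ± 3.82, was higher than 97.1% of 7720 protein-coding genes with such a transcript, whose median was 15.6%. Stat5a had 16.5% ± 1.54 by the same measure, and Stat5b, Socs1, Socs3 and Jak2 have no such transcript. Of the 50-base stretches of the Cish transcripts, 9.35% occur in other genes, most often in the antisense gene Gm17041. Gm17041 and the pseudogene Gm17040 overlap Cish on the other strand by 1459 and 1167 bases, and both had 0 counts in both libraries. As the strand setting is not known, reads in these overlaps, and with them the share of Cish-202, are uncertain. Stat6 overlaps Nab2 by 40 bases on the other strand, and Nab2 measured 11.5 and 12.6 TPM.

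The rest of the pathway was largely present in the same nuclear RNA. Of 55 other pathway genes in 8 lists, 48 were detected, where 44.5% of protein-coding genes were. All 16 receptor chains were, from Il10ra, the interleukin 10 receptor, at 139 ± 5.07 TPM and Csf2rb, the shared chain for granulocyte-macrophage colony-stimulating factor, at 135 ± 21.7 TPM, down to Epor, the erythropoietin receptor, at 2.10 ± 0.0495 TPM. The other 3 Janus kinases were all above or close to Jak2: Tyk2, which serves type I interferon receptors, at 35.1 ± 3.39 TPM, Jak1 at 33.8 ± 1.51 TPM and Jak3 at 10.8 ± 0.573 TPM. Stat4, which carries interleukin 12 signals in lymphocytes, stayed at 0.715 ± 0.205 TPM. Irf9, the DNA-binding partner of Stat2, measured 22.1 ± 3.26 TPM.

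Among the other SOCS genes, 4 of 5 were detected. Socs6 led with 22.5 ± 9.38 TPM and Socs5 followed with 9.22 ± 3.35 TPM, both below Socs3 and above Cish in each library, and Socs2 was lowest at 0.775 ± 0.361 TPM. All 11 phosphatases and other restraints were detected, from the ubiquitin ligase Cbl at 49.8 ± 18.8 TPM and the phosphatase Ptpn1 at 39.8 ± 0.672 TPM to Pias3, an inhibitor of Stat3, at 7.93 ± 2.31 TPM. All 4 partners were, with the acetyltransferase Ep300 at 43.7 ± 18.3 TPM, Irf9 next and the STAT-binding protein Nmi lowest at 5.53 ± 1.66 TPM. The 8 known STAT target genes were all detected. Irf1, a transcription factor, was highest at 631 ± 157 TPM, then Mcl1, a survival factor, at 501 ± 35.3 TPM, and Cebpd was lowest at 1.13 ± 0.0707 TPM. Irf1 and Mcl1 are also targets of other pathways, so their levels do not measure STAT activity.

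Of the ligands, 2 of 7 were detected. Il10 measured 119 and 89.6 TPM in replicates 1 and 2, and Osm, oncostatin M, 44.2 ± 19.6 TPM. Ifnb1, the interferon beta gene, rested on 1 count in replicate 1 and 3 counts in replicate 2, at 0.185 ± 0.0636 TPM. Il10ra RNA was thus above that of Stat2 and Socs3 in both libraries. Il10 RNA was above that of Stat2 in both, but above that of Socs3, at 59.1 and 98.0 TPM, in replicate 1 alone. Ifnb1 RNA was at the limit of counting.

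**Figure D4:**
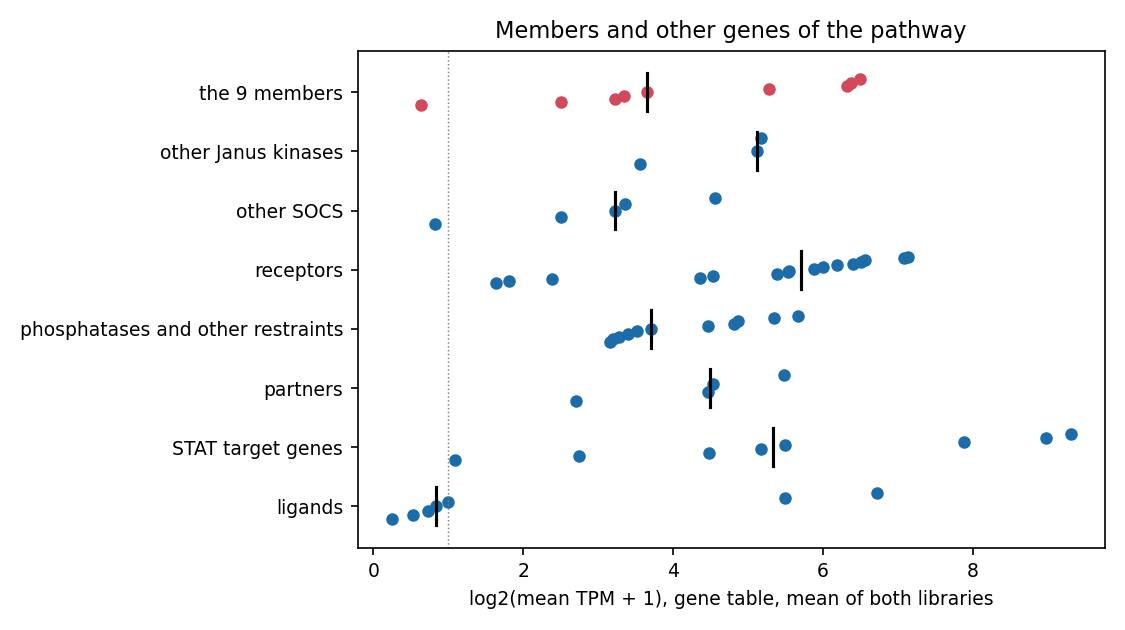
Level of the 9 members and of other pathway genes, by list, as log2 of the mean TPM of both libraries plus 1. Each point is a gene, black bars are list medians, and the dotted line is at a mean of 1 TPM. Osm is in 2 lists; receptors and STAT target genes reach the highest levels and 5 of the 7 ligands lie at or below the dotted line.

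The feedback genes are known as STAT targets, so the promoters of the members were read for STAT motifs. RefSeq promoters of 300 bases, 250 before the start site and 50 from it on (GRCm38.p6, the assembly that mm10 names), matched all 9 members, with 11 promoters in all because Stat5a and Stat5b have 2 each. The motifs searched, on both strands, were TTCNNNGAA, the gamma-activated site bound by most STAT dimers, TTCNNNNGAA, the wider spacing that Stat6 prefers, and GAAANNGAAA, the core of the interferon-stimulated response element bound by complexes of Stat2 and Irf9. Of 32851 promoters of this length, 8.30% held the first, 6.95% the second and 3.44% the third. Of the 11 promoters of the members, 2 held the first, 1 the second and 2 the third. Any of the motifs was found in 4 of the 11, but the share of all promoters with any of them was not computed. That count therefore has no background beside it. The 4 promoters, of Cish, Socs3, Socs1 and Stat2, are printed in transcript direction with the matches in capitals. Positions count from 0 at the RefSeq start site.
Cish, chr9:107296409-107296708, plus strand: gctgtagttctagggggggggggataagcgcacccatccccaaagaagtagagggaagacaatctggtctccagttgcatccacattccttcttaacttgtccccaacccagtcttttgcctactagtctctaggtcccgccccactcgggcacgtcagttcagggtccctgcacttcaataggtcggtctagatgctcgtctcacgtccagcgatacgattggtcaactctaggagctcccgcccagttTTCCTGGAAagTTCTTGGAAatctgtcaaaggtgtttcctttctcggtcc
Socs3, chr11:117969317-117969616, minus strand: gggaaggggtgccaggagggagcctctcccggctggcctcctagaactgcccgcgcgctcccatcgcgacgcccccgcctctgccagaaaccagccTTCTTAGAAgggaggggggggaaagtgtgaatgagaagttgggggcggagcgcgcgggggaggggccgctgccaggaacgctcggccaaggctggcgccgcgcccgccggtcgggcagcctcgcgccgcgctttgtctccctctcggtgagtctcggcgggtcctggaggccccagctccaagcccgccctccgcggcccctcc
Socs1, chr16:10785487-10785786, minus strand: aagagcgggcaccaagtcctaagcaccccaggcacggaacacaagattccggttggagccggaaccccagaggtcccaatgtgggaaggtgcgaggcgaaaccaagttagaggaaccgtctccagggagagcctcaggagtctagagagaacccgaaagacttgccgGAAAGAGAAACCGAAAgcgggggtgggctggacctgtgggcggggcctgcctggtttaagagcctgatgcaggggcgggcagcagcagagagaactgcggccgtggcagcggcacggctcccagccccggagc
Stat2, chr10:128270248-128270547, plus strand: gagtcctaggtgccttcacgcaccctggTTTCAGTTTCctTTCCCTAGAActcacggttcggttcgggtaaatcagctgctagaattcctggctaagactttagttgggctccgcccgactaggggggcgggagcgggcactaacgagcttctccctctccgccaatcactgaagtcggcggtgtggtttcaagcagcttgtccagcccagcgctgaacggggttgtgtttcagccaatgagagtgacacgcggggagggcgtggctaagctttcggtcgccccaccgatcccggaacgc
The Cish promoter holds 2 gamma-activated sites, TTCCTGGAA at 0 to 8 and TTCTTGGAA at 11 to 19, and 0.457% of all promoters hold 2 or more. That of Socs3 holds TTCTTAGAA at -154 to -146. Socs1 has 2 interferon cores that overlap by 4 bases, GAAAGAGAAA at -83 to -74 and GAAACCGAAA at -77 to -68, and 0.225% of all promoters hold 2 or more. Stat2 has the reverse strand of an interferon core, TTTCAGTTTC at -222 to -213, followed by TTCCCTAGAA at -210 to -201.

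The 4 promoters with a match belonged to genes at very different levels, from Socs1 at 0.560 ± 0.0990 TPM and Cish at 4.65 ± 1.30 TPM to Socs3 at 78.5 ± 27.5 TPM and Stat2 at 88.6 ± 12.9 TPM. All 3 inhibitors were among them, and of the other 6 members Stat2 alone, but the matches were to different motifs. Cish and Socs3 held the gamma-activated site, and Socs1 the interferon core. As the share of all promoters with any of the motifs was not computed, this split has no background beside it. A match is a description of letters and not a bound site, and the 7 promoters without one lack only these letters in this window. For Socs1 the RefSeq start is that of the leading GENCODE transcript. For Socs3 the GENCODE start of Socs3-201 lies 180 bases downstream of the RefSeq start, and for Cish that of Cish-201 lies 633 bases upstream. The Cish matches at the RefSeq start, base 107296659, therefore fall inside the span of Cish-201. The leading transcript, Cish-202, starts at base 107296907 and Cish-204 at base 107296710. For these transcripts the matches lie upstream of the start.

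**Figure D5:**
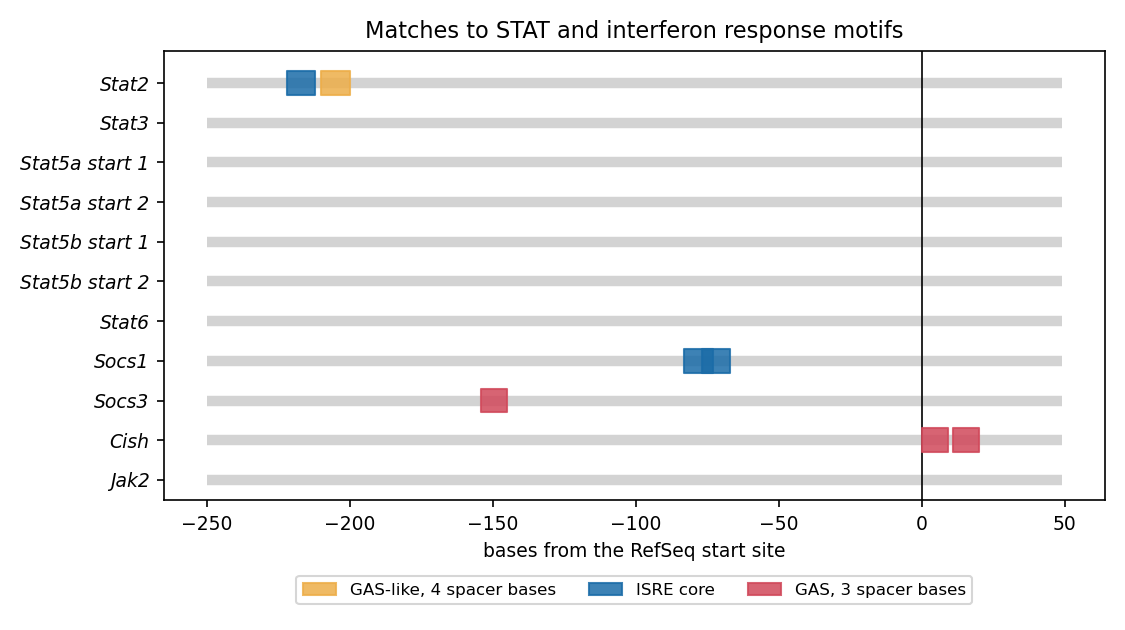
Positions of motif matches in the 11 RefSeq promoters of the members, in bases from the start site at 0; grey bars are the windows and coloured boxes the matches, both strands together. Matches lie in the promoters of Stat2, Socs1, Socs3 and Cish.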

How the data were processed

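Nucleoplasmic RNA of lipid A-treated macrophages was measured in 2 libraries. Expected counts and TPM per gene and per transcript were made by the authors from a transcriptome alignment to mm10 with GENCODE M21, per the deposited readme, and so was the deposited percent that each transcript takes of its gene. A second deposited transcript table, made directly from the reads and an index, is called the alignment-free table, and its expected counts and TPM were summed per gene. Quantifier names and strand settings are not stated in the labels or readme. The gene table held 13506939 and 17932332 expected counts on genes. Other rows stayed out of totals.

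Members, gene lists and tests were chosen with earlier results of these data known. All members are named, and of each other pathway list the 2 highest genes and the lowest, with Jak3 to complete the kinases. Of these, 1 gene is not reported here. With 1 group, no test or p-value was computed. Values are mean ± SD over libraries. Intervals are exact Poisson or Wilson intervals at 95%. Library ratios used TPM + 1 and genes with at least 10 counts. The 2-fold rule was also run on simulated counts with sampling noise alone, scaled to 1e+06 counts and not per length. Counts in these libraries differed by more than sampling noise, so that run does not measure how often calls here are wrong. Alternatives tried were another pseudocount (0.1 TPM), other minimums, TPM rescaled without mitochondrial genes and genes under 200 bases, the alignment-free table, edgeR 4.0.16 TMM factors and DESeq2 1.42.0 size factors on rounded expected counts, and each library alone. The rescaled alignment-free table, transcripts running into introns, the order of neighbours in the alignment-free table and the count beyond 2-fold without a minimum were added after seeing the data. Sequences are from GENCODE M21 transcripts and RefSeq promoters (GRCm38.p6).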

Additional observations from a re-analysis of the deposited data

How the results depend on the processing

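The number of members detected stayed between 7 and 9 under every alternative run. The median level of the members, 3.64 on the log2 scale, was 4.13 with rescaled TPM, 2.41 in the alignment-free table, 4.19 as a mean over members and 3.49 to 3.79 with each library alone. In the alignment-free table genes under 200 bases held 28.3% of the TPM in replicate 1 and 74.9% in replicate 2, and rescaling without them and mitochondrial genes gave 3.50. The median log2 ratio of the libraries was -0.30 with the median of all genes not subtracted, -0.13 in the alignment-free table and -0.044 without a minimum of counts. Members beyond 2-fold numbered 0 with the median not subtracted and 0 without a minimum of counts. The alignment-free table had Socs1 at 1.03 as its member beyond 2-fold, and Socs3 at 0.59. After rescaling, it had Socs3 at 1.24. The median share of retained-intron transcripts was 49.3% by TPM, 61.6% in the alignment-free table and 9.46% to 15.6% with each library alone. The share of Stat5b was 67.2% by counts, 55.2% in the alignment-free table and 57.2% to 58.8% with each library alone. Socs3 minus Stat3 reversed to -0.24 in the alignment-free table. Other pathway genes detected numbered 42 at a minimum of 5 TPM, 44 in the alignment-free table and 48 to 52 with each library alone. The causes were not tested. No paired analysis was possible because both libraries belong to 1 group. Among the members Socs1 had the fewest counts, 22 and 29 in replicates 1 and 2.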
